A study of Mus musculus with 16 samples.

Results

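Intergenic H3K9me3 peaks of mouse small intestinal crypts were compared between WT animals and animals lacking Smarcad1 in the intestinal epithelium. A peak was counted as intergenic when the annotation deposited with the peaks gave it no gene within 5 kb. Of 212313 H3K9me3 peaks, 134828 (63.5%) met this rule, and they covered 259 Mb. The other 77485 peaks comprised 61764 that overlapped a gene and 15721 that lay within 5 kb of one.

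All animals were males of the C57BL/6 strain, as the study states. The WT group was wild type, and the KO group carried a Vil-Cre mediated KO of Smarcad1, in which a Cre recombinase under the Villin promoter removes floxed exons of Smarcad1 in intestinal epithelial cells. Chromatin came from whole crypt isolates, so cells other than epithelium that remained in the isolate kept the gene. The H3K9me3 data held 3 WT libraries, 3 KO libraries and 1 input for each genotype, that is, sheared chromatin sequenced with no antibody step, out of 16 libraries in the series, and the labels give no age. The removed exons encode part of the ATP-binding region of Smarcad1. The study calls the libraries biological replicates, but the labels do not say whether each is a separate animal, so p-values measure the spread between libraries. Because tissue was profiled in bulk, fewer cells with the mark and less mark in each cell cannot be told apart.

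H3K9me3 is a histone mark of constitutive heterochromatin. It is deposited by methyltransferases such as Setdb1 and Suv39h, is bound by HP1 proteins, and in mammals silences many transposable elements. KRAB zinc finger proteins direct it to endogenous retroviruses through the corepressor Trim28, with which Smarcad1 interacts. Smarcad1 is an ATP-dependent remodeler of the Snf2 family that has been linked to maintenance of heterochromatin through DNA replication.

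Sequences of GRCm38 are shown first for a pair of peaks that lay far from any other peak and changed in opposite directions, to show how much of each is repeat. Both are the central 240 bases on the forward strand, and capitals mark bases outside the repeat masking of the genome. In the first, lower in KO, 98.8% of the 240 bases are masked, and in the second, higher in KO, 2.5%. Over the whole peaks the masked shares were closer, 61.1% and 17.5%.
chr7:79216231-79216470: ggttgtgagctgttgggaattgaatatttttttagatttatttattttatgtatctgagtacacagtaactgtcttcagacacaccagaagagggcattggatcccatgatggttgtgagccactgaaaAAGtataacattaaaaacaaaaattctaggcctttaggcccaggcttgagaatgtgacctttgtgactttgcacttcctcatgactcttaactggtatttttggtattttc
chr8:83819956-83820195: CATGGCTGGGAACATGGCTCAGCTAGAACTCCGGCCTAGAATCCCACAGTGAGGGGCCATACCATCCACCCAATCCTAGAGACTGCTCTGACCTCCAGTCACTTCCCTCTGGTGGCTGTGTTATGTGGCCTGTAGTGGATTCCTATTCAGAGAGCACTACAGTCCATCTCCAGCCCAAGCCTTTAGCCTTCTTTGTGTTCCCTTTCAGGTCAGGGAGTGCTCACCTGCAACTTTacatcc

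A further set of 4 windows shows the 9 letters GCCGAAACC in capitals. They match the site where a tRNA for phenylalanine primes reverse transcription in murine retroviruses such as intracisternal A particles. The windows come from the 4 intergenic peaks lower in KO with the smallest p among those with these letters in their central 1000 bases. Each holds 24 bases on either side. Any pair of the 4 shares between 23 and 36 of the 57 positions.
chr13:21203910-21203966, forward strand: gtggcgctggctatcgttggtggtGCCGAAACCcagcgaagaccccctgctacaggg
chr17:54395738-54395794, reverse strand: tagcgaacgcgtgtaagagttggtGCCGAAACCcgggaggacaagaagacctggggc
chr5:43959385-43959441, forward strand: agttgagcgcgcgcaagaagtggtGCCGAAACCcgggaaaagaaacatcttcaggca
chr6:39324582-39324638, forward strand: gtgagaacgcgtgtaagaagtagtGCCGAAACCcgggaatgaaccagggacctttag

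Intergenic peaks had a median width of 1350 bp, the same as the other peaks, and ranged from 300 to 57600 bp. The values deposited for them are log2 read counts, transformed so that the 6 ChIP libraries share one distribution, and levels below are on this scale unless stated. Reads over all H3K9me3 peaks, recovered from these values, numbered between 7055755 in KO replicate 1 and 11834999 in KO replicate 2. Intergenic peaks took from 59.9% to 61.3% of them in the ChIP libraries, 62.1% in the WT input and 61.3% in the KO input. The median intergenic peak held between 23 and 38 ChIP reads in a library. Their level differed little from that of the other peaks. The median log2 reads per kb over intergenic peaks was 4.52, 4.55 and 4.54 in the WT libraries and 4.58, 4.56 and 4.56 in the KO libraries. For the other peaks the WT mean was 4.56 ± 0.01 and the KO mean 4.57 ± 0.01 (SD, n = 3). The difference between both kinds of peak, KO minus WT, was 0.026 (exact permutation test over the 6 libraries, two-sided, p = 0.4). With 3 libraries in each group no such test can go below 0.1.

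To ask how the mark changed at intergenic sites without Smarcad1, each peak was compared between genotypes with limma over all 212313 peaks. In KO, 2192 intergenic peaks (1.63%) were lower and 170 (0.126%) were higher at a Benjamini-Hochberg adjusted p under 0.05. Over all H3K9me3 peaks the shares were 2.46% and 0.252%, and over the other peaks they were 3.92% and 0.472%. Intergenic peaks thus held 41.9% of all lower calls and 31.7% of all higher calls, though they made up 63.5% of the peaks. The median change was -0.80 among the lower and 0.73 among the higher members, and 548 and 39 of them had an absolute log2 change of 1 or more. At an unadjusted p under 0.05 there were 6809 lower and 5271 higher intergenic peaks. The counts depended on the test: edgeR on recovered counts called 2487 lower and 198 higher, and DESeq2 934 and 9. DESeq2 gave no adjusted p for 37271 intergenic peaks. Without its trend of variance on level, limma called 29 lower and 0 higher (6610 and 4761 at an unadjusted p under 0.05). Without WT replicate 1 limma called 1343 lower, and without KO replicate 1 or 3 it called 94 or 93 higher.

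All 3 KO values lay below all 3 WT values in 6.73% of intergenic peaks (8.21% of all peaks), and above them in 7.34% (7.3% of all peaks).

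The typical intergenic peak moved very little. The median change over all intergenic peaks was 0.035, with quartiles of -0.13 and 0.19. As deviations from the mean of the 6 libraries, the medians were -0.015, 0.005 and 0.005 in the WT libraries and 0.033, 0.017 and 0.018 in the KO libraries. The groups did not overlap, and the difference of 0.024 gave p = 0.1 in the exact permutation test, the smallest possible. It was 0.0081 with TMM scaling of recovered counts and 0.050 among the peaks at least 50 kb from every GENCODE M21 gene. Since the distributions of the libraries were matched over all peaks, a shift common to all peaks would not show in these values.

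The share of peaks that fell rose with the distance to the next H3K9me3 peak. Of the intergenic peaks, 98233 (72.9%) lay under 1 kb from another H3K9me3 peak, edge to edge, and 0.432% of these were lower in KO. The share was 3.04% of 29123 peaks at 1 to 10 kb, 11.5% of 5895 at 10 to 50 kb and 13.1% of 1577 at 50 kb or more. The share higher in KO lay between 0.102% and 0.151% in the 4 classes. Peaks at least 10 kb from the next peak made up 5.54% of intergenic peaks and 40.3% of the lower ones. Of the 7472 peaks that far from the next, 6580 were not called. The lower peaks lay a median of 6300 bp from the next peak, against 300 bp for the higher peaks and for those not called.

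**Figure D1:**
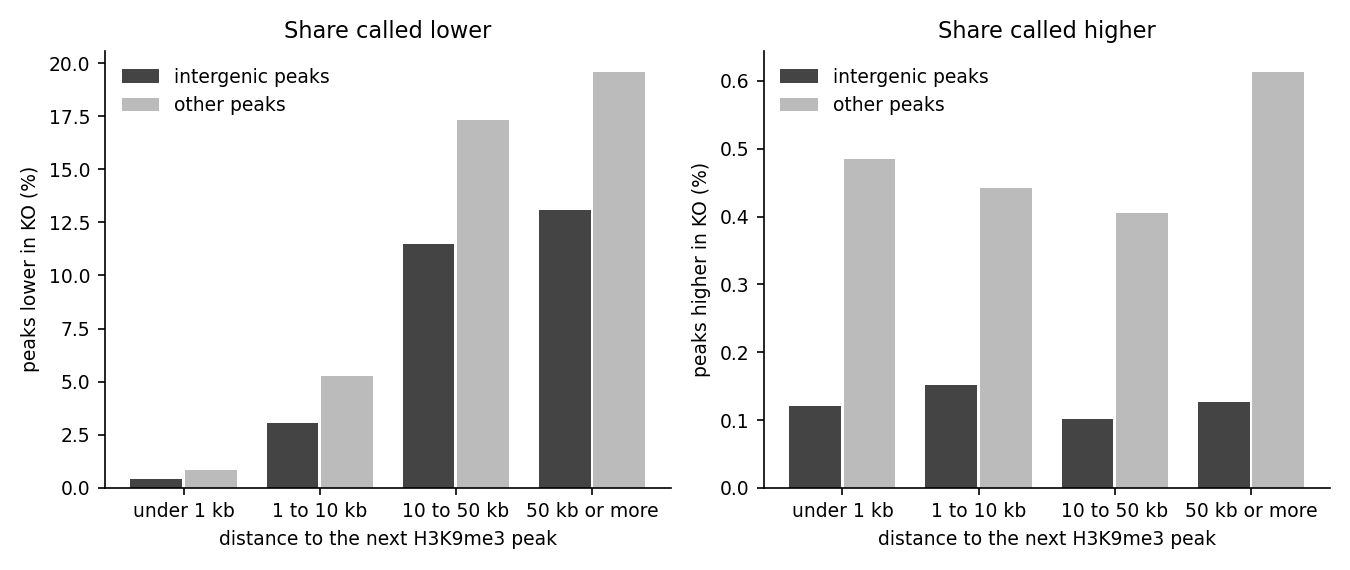
Share of H3K9me3 peaks called lower (left) or higher (right) in KO, in percent, by distance to the next H3K9me3 peak. Dark bars are intergenic peaks and light bars the other peaks. The share lower in KO goes from 0.432% to 13.1% of intergenic peaks, and the right panel has a smaller scale.

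The change of the median peak followed the same order. It was 0.051 under 1 kb, 0.016 at 1 to 10 kb, -0.24 at 10 to 50 kb and -0.32 at 50 kb or more, and by edgeR -0.0012 at 1 to 10 kb. Among peaks at 50 kb or more, the median deviation from the mean of the 6 libraries was 0.25, 0.15 and 0.13 in the WT libraries and -0.20, -0.11 and -0.15 in the KO libraries. Every WT library lay above every KO library. Under 1 kb the order was the opposite, with -0.035, -0.001 and -0.004 in WT against 0.046, 0.027 and 0.026 in KO. The difference between isolated peaks (50 kb or more) and crowded peaks (under 1 kb) averaged 0.19 ± 0.08 over WT libraries and -0.19 ± 0.05 over KO libraries (SD, n = 3), a KO minus WT difference of -0.38 (exact permutation test, p = 0.1, the smallest possible). WT replicate 1 had the largest value of the WT libraries, and the difference without it was -0.33. The median level over the 6 libraries, not scaled by width, was 5.09 under 1 kb and 4.73 at 50 kb or more. The median width in these 2 classes was 1500 and 1050 bp.

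The edgeR quasi-likelihood test on recovered counts gave the same order of classes. It called 0.513%, 3.39%, 12.8% and 15.1% of intergenic peaks lower, from the nearest to the farthest class, against 2.74% of all peaks. Peaks near or within genes followed distance too. Of the other peaks, 0.821%, 5.25%, 17.3% and 19.6% were lower in the 4 classes by limma, so the order was not particular to intergenic peaks. The difference between isolated and crowded peaks among them was -0.45 (KO minus WT, exact permutation test, p = 0.1). In the isolated class the intergenic minus other difference of deviations was -0.031, -0.037 and -0.045 in WT and 0.095, 0.013 and -0.020 in KO. All WT values lay below all KO values, and the KO minus WT difference was 0.067 (exact permutation test, p = 0.1).

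Enrichment over input differed between the classes as well. ChIP over input compared the share of a library's peak reads that fell in a peak with the same share in the input of that genotype (1 read added), so that 0 on the log2 scale is the average peak. Isolated intergenic peaks had a median of 0.29 ± 0.05 in WT and -0.12 ± 0.03 in KO (SD, n = 3). Crowded peaks had -0.099 ± 0.03 in WT and 0.002 ± 0.03 in KO. Over all intergenic peaks the values were -0.096, -0.060 and -0.073 in WT and 0.022, -0.031 and -0.025 in KO (difference 0.065, exact permutation test, p = 0.1). The KO input held slightly more reads than the WT input at isolated peaks, with a median log2 ratio of 0.081, and slightly fewer at crowded ones (-0.035). Each input is a single library, so this difference has no replicate check, and the part of the inputs in the ChIP over input values was not tested.

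**Figure D2:**
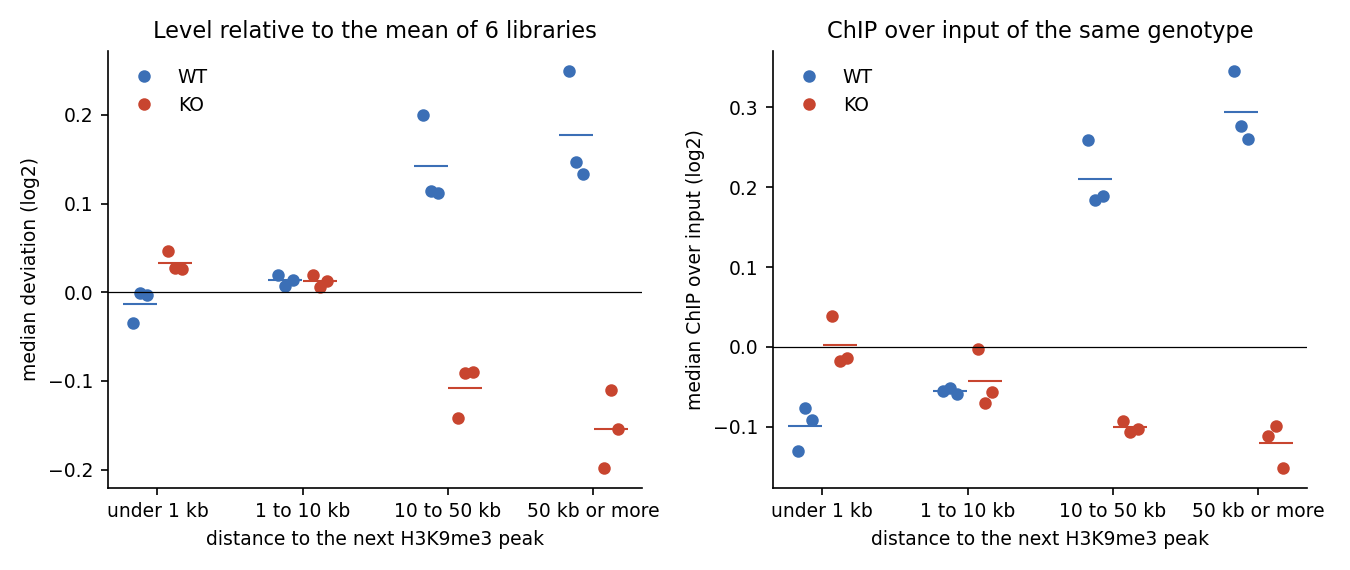
Median over intergenic peaks in each H3K9me3 library (points, 3 WT and 3 KO) by distance to the next peak, with the mean of each genotype as a dash. Left, deviation from the mean of the 6 libraries (log2), and right, ChIP over input of the same genotype (log2). At 50 kb or more all WT points lie above all KO points in both panels.

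Peaks were next split into 5 equal groups by their enrichment over input in WT replicate 1, which was then left out of the fold changes. In the group with the highest enrichment, the median change was 0.004 under 1 kb, -0.094 at 1 to 10 kb, -0.29 at 10 to 50 kb and -0.33 at 50 kb or more. In the lowest group it was 0.029, 0.048, -0.018 and -0.16. Isolated peaks thus had the lowest median in each of the 5 groups. The change in both classes beyond 10 kb was larger at higher enrichment. Since the split used a WT library, peaks that are higher in WT fall into the top groups. The order by enrichment is therefore partly set by the split, and no conclusion is drawn from it. Of the 1577 isolated peaks, 841 fell in the highest group and 68 in the lowest.

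The share called also differed by width. Of intergenic peaks under 1 kb wide, 0.353% of 42743 were lower. The share was 2.01% of 48889 peaks at 1 to 2 kb, 2.51% of 36024 at 2 to 5 kb, 2.20% of 6365 at 5 to 10 kb and 1.49% of 807 at 10 kb or more. The median change was 0.025 in the narrowest and 0.066 in the widest class by limma, but -0.010 and 0.022 by edgeR on recovered counts. The median standard error went from 0.32 to 0.089, so narrow peaks, with a median of 14 WT input reads, were measured less precisely. Within the peaks 2 to 5 kb wide, 37.4% of the 195 isolated ones were lower in KO, against 0.685% of the 28776 crowded ones. Narrow isolated peaks under 1 kb were lower in 2.88% of 694, with a median change of -0.24.

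Joining intergenic peaks at gaps of at most 10 kb gave 17784 clusters, of which 8568 were single peaks. With the mean level of each cluster tested by limma, 1584 clusters (8.91%) were lower and 22 (0.124%) were higher in KO. The share of lower clusters was 12.3% for single peaks, 9.54% for clusters of 2 to 4 peaks, 1.58% for those of 5 to 19, and 1 of 1285 for those of 20 to 99. The 209 clusters of 100 or more peaks together held 24.8% of all intergenic peaks. Among them limma called 0 in either direction, and 0 had an unadjusted p under 0.05. The fit related variance to level and not to the number of peaks averaged. The peak chr7:79215301-79217400 had an SE of 0.097 as a cluster of its own, against 0.16 in the fit of peaks. Shares of clusters of different size are partly set by this fit, so no conclusion is drawn from their order. Without the variance trend limma called 995 clusters lower, and with replicate number as a further term 966 lower and 5 higher. With gaps of at most 1 kb it called 54 clusters higher. The cluster calls also depended on single libraries, with fewer lower clusters without WT replicate 1 (516), WT replicate 2 (810), WT replicate 3 (748) or KO replicate 3 (983), and between 4 and 11 higher ones without any single library other than WT replicate 1 (15).

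The clusters with the most members spanned over 1 Mb each. The cluster with the most members, chr14:84542701-86210400, held 487 peaks that covered 70.9% of 1668 kb, and Pcdh17, which encodes a protocadherin of neurons, was the gene nearest to its first peak. Its mean level was 5.32, 5.42 and 5.39 in WT against 5.45, 5.44 and 5.44 in KO. The KO values lay slightly above the WT values, with a change of 0.070 (SE 0.08, limma adjusted p = 0.66). The clusters chr18:18105151-19476450, with 451 peaks, and chr15:28599901-29708100, with 391, changed by 0.023 (SE 0.08, limma adjusted p = 0.902) and 0.072 (SE 0.08, limma adjusted p = 0.68).

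The 8 intergenic peaks lower in KO with the smallest p lay on 7 chromosomes. The first, chr16:21035101-21054900, is 19.8 kb wide and had levels of 10.2, 10.2 and 10.4 in WT and 9.02, 9.28 and 9.20 in KO. All KO values lay below all WT values, and the change was -1.11 (SE 0.07, limma adjusted p = 1.88e-16). Its counts exceeded the highest ones recovered exactly in all 6 libraries. The nearest gene was the pseudogene Gm6557, 7.31 kb away.

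The peak chr7:79215301-79217400, whose centre is the first sequence shown above, stood 45.9 kb from any other peak. Levels were 6.89, 6.88 and 6.90 in WT and 4.66, 4.95 and 4.92 in KO, a change of -2.05 (SE 0.16, limma adjusted p = 4.67e-13). Recovered ChIP over input fell by about 2 log2 units from 1.03 in WT, while the inputs held 50 reads in WT and 49 in KO. The nearest protein-coding gene was Abhd2, a lipid hydrolase, 55.8 kb away.

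The peak chr1:30919351-30922200, 18.1 kb from Ptp4a1, a protein tyrosine phosphatase, had 7.10, 7.18 and 6.97 in WT and 5.31, 5.48 and 4.92 in KO (change -1.85, SE 0.15, limma adjusted p = 2.92e-12). The peak chr8:61438501-61442850, 42.4 kb from Sh3rf1, a ubiquitin ligase that acts as a scaffold in JNK signalling, had 7.79, 7.68 and 7.84 in WT and 6.10, 6.55 and 6.36 in KO (change -1.43). In both, WT and KO did not overlap. The peak chr2:164524351-164527200, 16.1 kb from Pigt, a subunit of the GPI transamidase, had 7.29, 7.19 and 7.03 in WT and 5.02, 5.86 and 5.59 in KO (change -1.68).

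For the remaining 3 of the 8 the nearest gene was not protein-coding (Gm12034, Gm49736 and Cyp2d34-ps), and the nearest coding genes were as follows. The peak chr11:20388601-20394900, 55.9 kb from Slc1a4, a transporter of neutral amino acids, changed by -1.13. The peak chr16:31394251-31398900, 23.4 kb from Bdh1, an enzyme of ketone body metabolism, changed by -1.43, and chr15:82587001-82591200, 24.8 kb from the cytochrome P450 gene Cyp2d34, by -1.12. In each of the 3, all KO values lay below all WT values. All 8 were also lower at an adjusted p under 0.05 in edgeR and DESeq2 on recovered counts and in each fit that left out 1 library. None of the 8 lay in an H3K9me2 region.

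**Figure D3:**
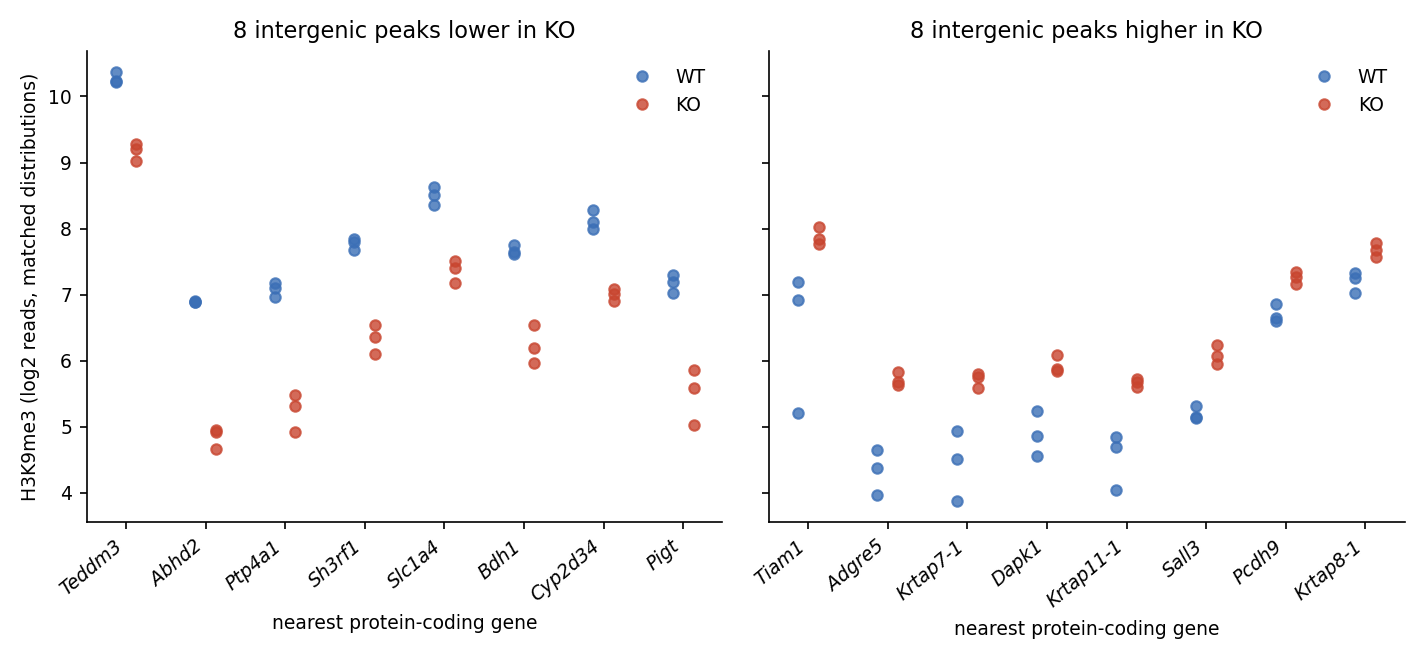
H3K9me3 level (log2 reads after matching of distributions) of the 8 lower and 8 higher intergenic peaks with the smallest p, labelled by the nearest protein-coding gene. Each point is 1 library, blue for WT and red for KO. In all 16 the points of both genotypes do not overlap, which the choice of these peaks required, and the WT values of the Tiam1 peak run from 5.21 to 7.19.

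Among the 8 higher peaks, 4 lay at one locus on chromosome 16. The peak chr16:90100501-90106800 had 7.19, 6.92 and 5.21 in WT and 8.02, 7.84 and 7.76 in KO (change 1.43, SE 0.21, limma adjusted p = 4.55e-06). WT replicate 3 was far below the other WT libraries, and without it the change was 0.82 (limma adjusted p = 8.33e-06). DESeq2 did not call this peak (change 1.18, adjusted p = 0.675), while edgeR did (change 1.19, adjusted p = 3.75e-10). It lies inside Tiam1, an exchange factor for the GTPase Rac, in GENCODE M21, although the deposited annotation gave it no gene. The peak chr16:89516851-89518500, 8.53 kb from Krtap7-1, a keratin-associated protein of hair, had 4.94, 4.52 and 3.88 in WT and 5.80, 5.75 and 5.59 in KO (change 1.27). The peak chr16:89585101-89586750, 0.103 kb from the lincRNA gene Gm49696 in GENCODE M21 and 13.9 kb from the coding gene Krtap11-1, changed by 1.13. The peak chr16:89472901-89480550, 6.83 kb from Krtap8-1, changed by 0.47. It was no longer called without WT replicate 3 (change 0.38, limma adjusted p = 0.083) or by DESeq2 (change 0.44, adjusted p = 0.105).

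The other 4 higher peaks lay apart from each other. The peak chr8:83819401-83820750, the second sequence above, stood 26.2 kb from the next peak and 78.1 kb from Adgre5, an adhesion receptor. Its levels were 4.37, 4.64 and 3.96 in WT and 5.83, 5.63 and 5.67 in KO (change 1.39, SE 0.22, limma adjusted p = 1.78e-05), with 34 and 31 reads in the WT and KO inputs. The peak chr13:60510601-60512700, 89.2 kb from the kinase gene Dapk1, had 5.24, 4.86 and 4.56 in WT against 5.87, 6.09 and 5.85 in KO. The peak chr18:81507451-81510000 changed by 0.89. It lies inside the lincRNA gene AC102255.3 in GENCODE M21, and the nearest coding gene, the zinc finger gene Sall3, is 521 kb away. The peak chr14:92180401-92185800, 828 kb from the nearest coding gene, the protocadherin gene Pcdh9, changed by 0.56. All 4 were called in each fit that left out 1 library and by DESeq2.

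Most called peaks stood alone, and a few loci held several. These loci were picked out after their values were seen and are given as a description. Lower peaks joined at up to 50 kb formed 1674 loci, of which 1339 held a single lower peak and 16 held 5 or more. The locus with the most, chr16:20848501-21181050, held 43 intergenic peaks over 333 kb, and 28 of them were lower in KO. The median change over all 43 was -0.80, with deviations of 0.49, 0.31 and 0.40 in WT and -0.55, -0.26 and -0.36 in KO. Leaving out 1 library left between 20 and 27 called. ChIP over input had a median of 0.88 among WT libraries against 0.039 among KO libraries, and the input ratio one of 0.081. The nearest coding genes were Ephb3, a receptor tyrosine kinase that positions cells along the crypt, Chrd, an inhibitor of bone morphogenetic proteins, and Teddm3. None of the 43 peaks overlapped an H3K9me2 region.

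A second locus, chr6:37637851-37853100, held 25 intergenic peaks, of which 11 were lower, with a median change of -0.40 over the 25. Its nearest coding genes were Akr1d1, a reductase of bile acid synthesis, and Trim24, a chromatin reader. Omitting single libraries gave between 6 and 11 calls, the fewest on omission of WT replicate 3 (6) or WT replicate 2 (7).

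Higher peaks were joined at up to 500 kb into 122 loci, of which 106 held 1 higher peak. A single locus, chr16:89364901-90139500, held 31 of the 170. It contained 88 intergenic peaks over 775 kb that take in Krtap genes and part of Tiam1, with a median change of 0.48. The median deviations were -0.011, -0.21 and -0.49 in WT and 0.23, 0.28 and 0.24 in KO. All 3 KO libraries lay above the WT libraries, which were spread widely with WT replicate 3 lowest. Without WT replicate 3 the number called fell to 11 and the median change to 0.32, and without any other single library it was between 22 and 34. The median input ratio was 0.019. Of the 88 peaks, 59 overlapped an H3K9me2 region.

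**Figure D4:**
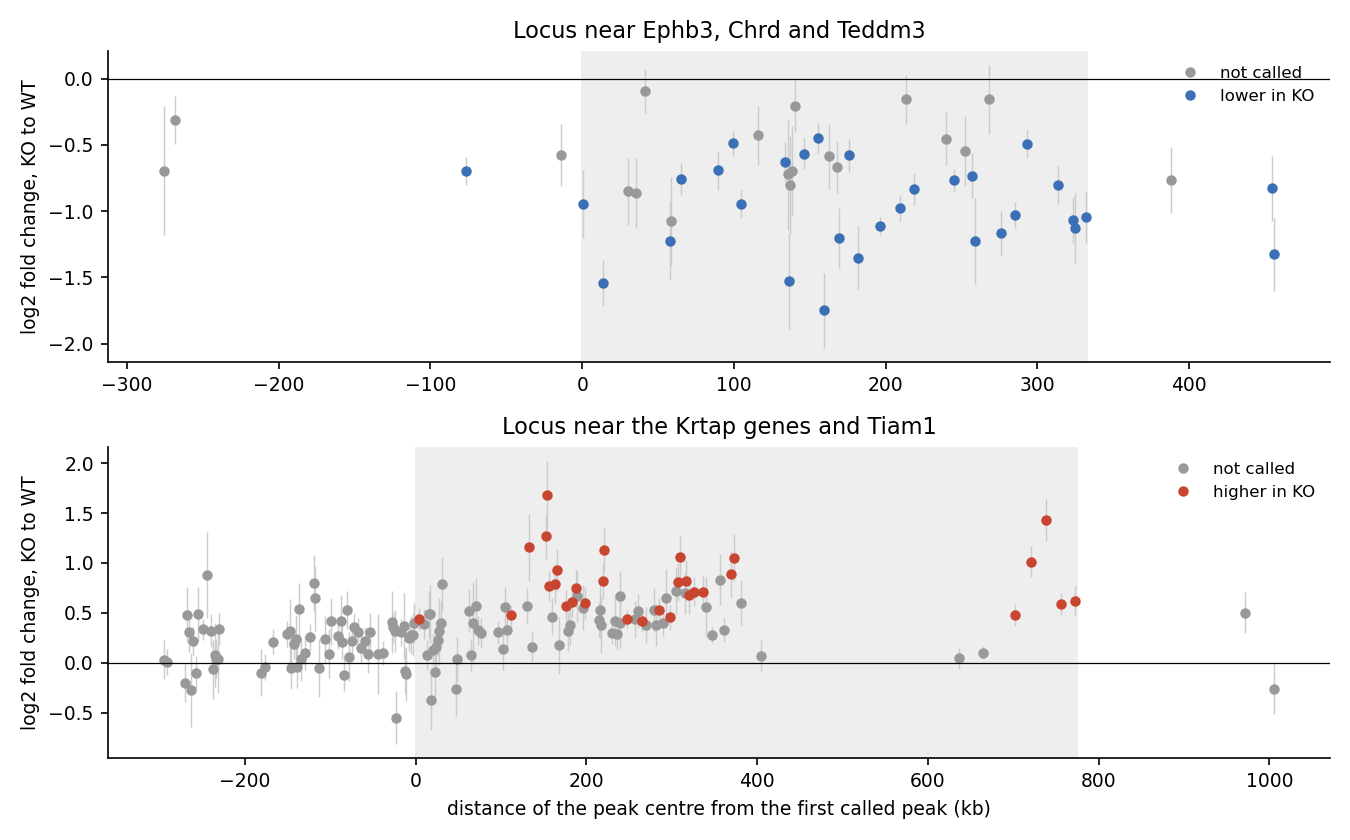
Log2 fold change (KO to WT, bars are standard errors) of each intergenic peak by distance of its centre in kb from the first called peak of the locus with most lower calls (top) and most higher calls (bottom), with 300 kb on each side. The shaded span is the locus, blue and red points are peaks lower or higher in KO, and grey points were not called. In the upper span 28 of 43 peaks are lower and in the lower span 31 of 88 are higher.

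Chromosomes differed in how many intergenic peaks they held and how many fell. Autosomes had between 28.3 (chromosome 19) and 77.0 (chromosome 15) intergenic peaks per Mb, the X chromosome 11.4 and the Y chromosome 7.15. The intergenic share of peaks was lowest on chromosome 7 (46.5%) and highest on chromosome 18 (77.9%). Between 0.803% (chromosome 12) and 4.37% (chromosome 19) of intergenic peaks were lower on the autosomes. Chromosome 19 also had the largest share of autosomal peaks at least 10 kb from the next one, 11.4%, and the smallest was 3.32% on chromosome 15. Across the 19 autosomes, which share the same 6 libraries, both shares had a Pearson correlation of 0.94 and a Spearman correlation of 0.82.

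The X chromosome had many isolated peaks, but its share of lower calls was under that of all intergenic peaks. Its 1951 intergenic peaks were narrow, with a median of 450 bp, and 37.5% of them stood at least 10 kb from the next peak. Against 1.63% lower over all intergenic peaks and 0.803% on chromosome 12, limma called 1.13% lower and 0 higher on X. At an unadjusted p under 0.05, 129 were lower and 40 higher there, and edgeR called 35 lower and 0 higher. The median change on X was -0.067 (edgeR -0.12), further below 0 than the -0.025 (edgeR -0.041) of chromosome 19. The median standard error was 0.38 on X and 0.25 on chromosome 19. On Y the median change was -0.075 (edgeR -0.12). The median deviations on X, 0.12, 0.034 and 0.049 in WT against 0.055, -0.028 and -0.057 in KO, overlapped between the genotypes. The Y chromosome had 656 peaks with a median of 600 bp. Of these limma called 1 lower and 0 higher, with 29 and 2 at an unadjusted p under 0.05. By edgeR 2 were lower and 0 higher. In males X and Y are single copies. The median peak held 6 WT input reads on X and 7.5 on Y, against 24 on chromosome 19 and 34 on chromosome 1. The part of copy number and read depth in what sets X and Y apart was not tested. Chromosome 16 had 0.598% higher, with 40 of the 170 higher peaks, of which 31 came from the locus described above. The authors kept only reads above a minimum mapping quality, so copies of a repeat that cannot be told apart are measured poorly.

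**Figure D5:**
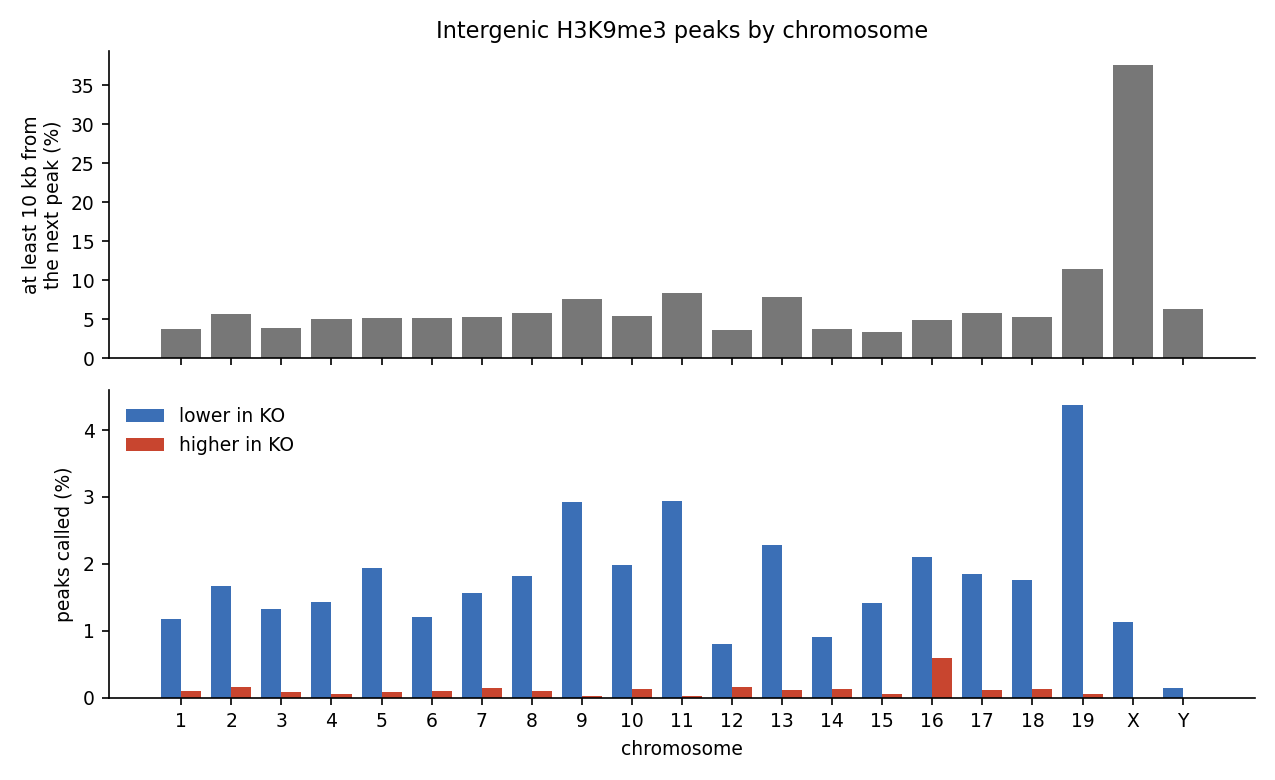
Percent of the intergenic H3K9me3 peaks of each chromosome that lay at least 10 kb from the next peak (top) and that were lower (blue) or higher (red) in KO (bottom). Chromosome 19 has 11.4% in the top panel and 4.37% lower in the bottom panel, and X has 37.5% and 1.13%.

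Most intergenic peaks were far from coding genes. The nearest gene in GENCODE M21, the reference annotation used here, was a processed pseudogene for 40.2% of them, a lincRNA for 17.9% and a protein-coding gene for 15.2%. The median distance to any gene was 42219 bp and to a coding gene 300430 bp. GENCODE M21 placed 5602 of the peaks within 5 kb of a gene, 3757 of these overlapping one, so the rule did not hold in that annotation for 4.15% of them. The lower peaks lay nearer to genes, at a median of 14218 bp against 43035.5 bp for peaks not called and 39605 bp for higher ones. Of the peaks under 5 kb from a gene in GENCODE M21 2.32% were lower. From 5 to 10 kb 4.63% were lower, from 10 to 50 kb 2.20%, from 50 to 100 kb 0.487% and at 100 kb or more 0.209%. Within each of these classes isolated peaks were lower more often than crowded ones. At 100 kb or more from a gene 0.0468% of 23491 crowded peaks and 8.00% of 75 isolated peaks were lower. At 5 to 10 kb from a gene the share was 1.34%, 6.80%, 18.2% and 17.0% from the nearest to the farthest next peak, and under 5 kb it was 0.863%, 4.70%, 13.2% and 11.9%, so in both classes it was slightly higher at 10 to 50 kb than beyond.

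Around the limit of the rule, the peaks had the following values, with no test. The intergenic peaks nearest to the limit in GENCODE M21, both 5.00 kb from a gene, were chr17:39102151-39104250 near Esp22 (change -0.16) and chr16:91216051-91217100 near Gm49614 (change -1.07). The other peaks at the limit of 5.00 kb were chr6:130573801-130574400 near Gm8816 (change 0.83) and chr6:74335201-74335950 near Gm26179 (change 0.19). Of other peaks over 4 kb from their gene in the deposited annotation, 6.40% of 2843 were lower. Of intergenic peaks 5 to 6 kb from a gene in GENCODE M21, 4.97% of 3019 were lower, and since the annotations differ these shares are not compared.

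Families of the nearest genes were counted by symbol. Olfactory receptor genes (Olfr) were nearest to 1233 intergenic peaks, of which 11 were lower and 1 higher. Vomeronasal receptor genes (Vmn) were nearest to 1129, with 8 lower and 1 higher. Both families had shares of lower peaks, 0.892% and 0.709%, under the 1.63% of all intergenic peaks, of which 5.54% stood at least 10 kb from the next peak. Cytochrome P450 genes (Cyp) were nearest to 185 peaks, of which 25 (13.5%) were lower and 12.4% stood that far from the next peak. For solute carrier genes (Slc) it was 19 of 195 (9.74%), and 31.3% stood that far. For zinc finger genes (Zfp) it was 18 of 382 (4.71%), with 5.50% that far. Predicted genes named Gm were nearest to 95226 peaks, with 1.03% lower and 4.08% that far, and Rik transcripts to 7016, with 1.97% and 7.06%. Genes with a Mir symbol, which are only some of the annotated microRNA genes, had 5 lower (0.448%) and 1 higher of 1115, with 3.50% that far, Pcdh genes 0 lower and 1 higher of 90, and neither the 77 peaks near Skint genes nor the 3 near defensin genes (Defa) held a call.

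Sequence features, which the rule did not use, are given for the central 1000 bases. Intergenic peaks had a mean GC content of 39.6%, 6.29 CG dinucleotides per kb and 46.0% of bases in repeat masking. The other peaks had 40.6%, 7.45 and 39.2%, and windows 20 kb away from the intergenic peaks 38.5%, 5.73 and 41.9%. These shifted windows were not cleared of H3K9me3 peaks, so they can lie in other peaks. Lower intergenic peaks had 42.6%, 8.90 and 56.9%, above all intergenic peaks in each. Higher ones had 40.7% GC, 8.28 CG per kb and 32.6% in repeat masking. Isolated peaks resembled the lower ones, with 43.3%, 9.86 and 54.6%. How lower peaks compared with those not called depended on the distance to the next peak. Lower peaks had more CG under 1 kb (10.1 per kb against 5.81 in peaks not called) and at 1 to 10 kb (9.2 against 7.0), but less at 10 to 50 kb (7.85 against 9.44) and at 50 kb or more (8.58 against 10.0). Their GC content was 42.3% against 39.0% under 1 kb, 42.7% against 40.4% at 1 to 10 kb, 42.6% against 42.8% at 10 to 50 kb and 42.7% against 43.3% at 50 kb or more. The share in repeat masking was 64.9% in lower peaks against 45.3% under 1 kb, 55.5% against 46.1% at 1 to 10 kb, 53.5% against 53.6% at 10 to 50 kb and 57.1% against 54.3% at 50 kb or more.

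The letters GCCGAAACC, searched on both strands, were in the central 1000 bases of 339 intergenic peaks (0.251%), 0.264% of all H3K9me3 peaks and 0.108% of the shifted windows. Lower intergenic peaks had them in 1.28% (28 of 2192), peaks not called in 0.235%, and none of the 170 higher peaks did. Of the 339 peaks, 8.26% were lower, against 1.61% of those without the letters. Of the 222 other peaks that held them, 32 were lower (14.4%, against 3.92% of all other peaks), with a median change of -0.25 against -0.15 in the 339. In crowded peaks these shares were 4.22% of 166 and 0.425%, and in peaks at least 10 kb from the next 15.2% of 66 and 11.8%. The 339 peaks were strongly enriched, with a median ChIP over input of 0.73 in WT and 0.42 in KO. Their median deviations were 0.23, 0.018 and 0.12 in WT against -0.036, -0.057 and -0.17 in KO. The WT and KO values did not overlap, though WT replicate 2 lay close to KO replicate 1.

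The 4 peaks whose windows are shown above had these levels. The peak chr13:21203101-21205650, 8.38 kb from Trim27, a ubiquitin ligase, had 6.79, 6.41 and 6.59 in WT against 4.89, 5.86 and 5.32 in KO. The peak chr5:43958701-43960650, 18.2 kb from the coding gene Fgfbp1, had 6.14, 5.86 and 5.75 in WT against 4.66, 4.42 and 4.77 in KO. The groups did not overlap in either, and the changes were -1.24 and -1.30. The peaks chr17:54395401-54397050 and chr6:39323851-39325650, the latter 9.12 kb from Slc37a3, changed by -1.36 and -1.34. These 4 were chosen after their values were seen.

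Other short motifs were searched on both strands in the same windows. TGCCGC, part of the site bound by the zinc finger protein Zfp57 when methylated, was in 4.34% of intergenic peaks, 4.75% of all peaks and 9.44% of lower intergenic peaks. Lower peaks also had it more often than those not called under 1 kb (10.6% against 3.54%) and at 1 to 10 kb (11.3% against 5.73%). Beyond 10 kb from the next peak the order was the opposite, with 6.64% of lower peaks and 8.18% of those not called at 10 to 50 kb, and 8.25% and 9.93% at 50 kb or more. The telomeric unit TTAGGG was in 32.9% of intergenic peaks, 32.9% of all peaks and 39.5% of lower intergenic peaks. For the same 3 sets, CTCGTCCGG, from a primer site for proline tRNA, was in 0.0356%, 0.0363% and 0.0912% (2 peaks), and CCGAACAGG, from one for lysine tRNA, in 0.0719%, 0.0758% and 0.0456% (1 peak). No 2 of the 5 motifs can match the same bases in full. Such matches are descriptions and do not show binding or an intact element.

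H3K9me2, a related mark with a broader distribution, was examined over the same sites. Of the intergenic H3K9me3 peaks, 69.8% overlapped an H3K9me2 region, compared with 65.4% of the other peaks. The share was 20.7% for intergenic peaks lower in KO and 70.0% for those higher. It was 72.6% under 1 kb from the next peak and 24.6% at 50 kb or more. Among crowded peaks 32.1% of the lower and 72.8% of those not called overlapped a region, and among isolated peaks 31 of 206 and 26.0%. The 18609 H3K9me2 regions that overlapped an intergenic peak had a median log2 CPM (counts scaled to library size) of 4.13, 4.19 and 4.20 in WT against 4.18, 4.18 and 4.21 in KO. The values overlapped, and the difference of 0.013 gave p = 0.8 (exact permutation test, two-sided). Since each library was scaled to its sum over all H3K9me2 regions, a change common to all regions would not show. By Western blot the study reports some drop of this mark in small intestinal crypts. By ChIP-seq it found that the mark did not appear to be significantly affected.

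The 3 widest intergenic peaks and the 3 farthest from any other peak were not called. Of all intergenic peaks at 50 kb or more from the next, 13.1% were lower. The widest, chr4:152815201-152872800 with 57.6 kb, had 10.8, 10.7 and 10.8 in WT against 10.8, 10.8 and 10.9 in KO, and the next, chr16:90002701-90056700 with 54.0 kb, lies inside Tiam1 in GENCODE M21 and changed by 0.100 (SE 0.07, limma adjusted p = 0.659). The third, chr4:153026101-153073350, changed by 0.035. The 3 farthest from any other peak, chrY:81256351-81256950, chrY:86743351-86743950 and chrY:89303701-89304300, were all on the Y chromosome and at least 99.2% repeat masked. Their changes were 0.21, -0.35 and 0.15, with standard errors of 0.37, 0.35 and 0.37. They held between 3 and 10 reads in each input.

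The most enriched intergenic peaks with at least 20 reads in each input were all on chromosome 12. The peak chr12:21756301-21760200 had a mean ChIP over input of 1.93 over the 6 libraries and a change of -0.25 (SE 0.12, limma adjusted p = 0.458). The peak chr12:18646651-18652050, which holds the processed pseudogene Gm49760 in GENCODE M21, changed by -0.16, and chr12:76741501-76745100, 20.4 kb from the gene Churc1 and 98.1% repeat masked, by -0.43 (SE 0.12, limma adjusted p = 0.0422). The latter had 7.29, 6.92 and 6.95 in WT and 6.59, 6.61 and 6.66 in KO, and was no longer called when any library but WT replicate 2 was left out.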

How the data were processed

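The authors trimmed paired-end reads with Trim Galore 0.4.4, mapped them to GRCm38 with Bowtie2 2.3.2 and dropped duplicates and reads of low mapping quality. MACS peaks were called a single time for each mark from the pooled ChIP libraries and both inputs, and therefore do not show enrichment in any one library. For H3K9me3 the authors deposited log2 read counts of each peak (lower limit 1 read), the 6 ChIP libraries being matched in distribution and the inputs not. For H3K9me2 they deposited a signal, the average read count of the peaks in a region, which was multiplied here by the number of peaks. Shorter tables hold tests by the authors and were not used, except that the read counts deposited in the H3K9me2 one served to check these sums.

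Since matching keeps the order of counts within a library, counts were recovered from the rank among distinct values. Counts of 0 and 1 cannot be separated, and the highest (above 318 to 375, by library) were extrapolated. limma 3.58.1 (eBayes with trend, genotype as the only term) was fitted to all 212313 peaks, two-sided, with a Benjamini-Hochberg adjusted p under 0.05. Alternatives were edgeR 4.0.16 and DESeq2 1.42.0 on recovered counts, other filters, thresholds and members, a block for replicate numbers, and omission of single libraries. Functions were tested on simulated data. Genes came from GENCODE M21 and sequences from the RefSeq GRCm38 genome. R 4.3.3 and Python 3.11.15 were used.

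Peaks were named by rule: the 8 lower and 8 higher with the smallest p among called peaks without overlap of genotypes (1 per cluster); the 3 widest, the 3 farthest from another peak, the 3 most enriched with at least 20 reads in each input, the 3 largest clusters, those at the 5 kb limit, and those whose inputs differ at least 4-fold (binomial adjusted p under 0.05). The members, lists and rules were chosen with earlier results of these data known. The isolated-to-crowded comparison, the loci and the tRNA-Phe peaks were added after seeing the data.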

Additional observations from a re-analysis of the deposited data

Results flagged for a closer look

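At 4 of 134828 intergenic peaks the reads of the single WT and KO input libraries differed at least 4-fold after scaling to all reads in peaks (binomial test, adjusted p under 0.05). The inputs enter no comparison of calls, and with 1 input per genotype a difference cannot be assigned to genotype. The peak chr3:18886801-18887400 held 2 reads in the WT input and 26 in the KO input, and its H3K9me3 change was 0.64 (SE 0.35). The peak chr4:92029501-92031150 held 14 and 54 reads, with a change of 0.25 (SE 0.20).

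In the other direction, chr11:3099751-3113100 held 2093 reads in the WT input and 477 in the KO input. Its H3K9me3 levels were 12.3, 9.85 and 9.99 in WT and 9.53, 9.86 and 9.75 in KO (change -1.02, limma adjusted p = 0.00699), so WT replicate 1 stood apart, and without it the peak was not called (limma adjusted p = 0.23). The peak chr13:22156651-22158750 held 42 and 9 reads, and its levels of 7.17, 6.18 and 2.50 in WT and 2.58, 6.69 and 5.64 in KO varied more within than between genotypes. At any fold, 23 intergenic peaks passed the input test, 12 with more KO and 11 with more WT reads.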

How the results depend on the processing

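The H3K9me2 difference, which passed no test, went from 0.013 to -0.008 without WT replicate 1. By edgeR on recovered counts, median changes near 0 turned negative for peaks under 1 kb wide, for those 1 to 10 kb from the next peak and on chromosome 7 (from 0.017 to -0.003). The counts of calls moved most. With an adjusted p under 0.01, limma called 1393 intergenic peaks lower and 36 higher, and 281 clusters lower and 2 higher. At an absolute log2 change of 1 or more these were 548, 39, 278 and 3. limma without trend called 29 peaks lower, 0 higher and 995 clusters lower, and DESeq2 934 peaks lower and 9 higher. Joining at gaps of at most 1 kb gave 54 higher clusters. Among members at least 50 kb from every GENCODE M21 gene, 210 were lower and 72 higher, the median deviation differed by 0.050, the level relative to other peaks by 0.049, ChIP over input by 0.11 and isolated minus crowded peaks by -0.29. With TMM on recovered counts the median difference was 0.0081. The causes of these differences were not tested. Members farther from genes are fewer, and their shares of lower calls were smaller as well. These were 0.487% at 50 to 100 kb and 0.209% at 100 kb or more, against 1.63% of all members.

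Leaving out each library in turn gave 1343 to 2046 lower and 93 to 160 higher peaks, 516 to 1349 lower and 4 to 15 higher clusters, and a median difference from 0.018 to 0.027. The level relative to other peaks ranged from 0.011 to 0.033, ChIP over input from 0.048 to 0.074, isolated minus crowded peaks from -0.40 to -0.33 and H3K9me2 from -0.008 to 0.025.

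Same-numbered WT and KO libraries did not deviate together (correlations of -0.002, 0.015 and -0.011), so the numbers are not taken to pair them. With a replicate block, limma called 2191 peaks lower and 173 higher, but 966 clusters lower and 5 higher. The block left the other differences at 0.024, 0.026, 0.065, -0.38 and 0.013, with a smallest possible p of 0.25. Peaks with few reads limit what can be called: the median intergenic peak held 23 reads in KO replicate 1, the shallowest library.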
